A study of Rattus norvegicus with 6 samples.

Results

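The genes described here are 10 feedback genes of the mitogen-activated protein kinase (MAPK) pathway, listed by name as 4 dual-specificity phosphatases (Dusp1, Dusp4, Dusp5 and Dusp6), the Sprouty genes Spry1, Spry2 and Spry4, the Sprouty relative Spred1, and the ETS transcription factors Etv4 and Etv5. A gene was taken where the platform annotation mapped a probe set of the deposited table to its symbol alone. This gave 14 probe sets for 9 of the 10 genes, out of 14217 genes on the array. No probe set was listed for Spred1, which is not analysed here. BDEsp-TDECC, called TDECC below, is a clonal rat cholangiocarcinoma (bile duct cancer) strain and was measured on 3 arrays. BDEsp-TDESM, called TDESM, is a clonal strain of cancer-associated fibroblasts described by its overexpression of Acta2, also measured on 3 arrays. Both strains derive from orthotopic tumours that BDEsp cells, spontaneously transformed rat cholangiocytes, formed in the bile duct of young adult male Fischer 344 rats. The labels of all 6 samples alike name a 3-dimensional culture in collagen type I gel, co-culture, and the TGF-beta inhibitors SB 431542 and LY2157299. They do not say which arrays, if any, came from co-cultures or from cultures that received the inhibitors. Each strain is 1 clone. No label states that replicates were grown separately, and the p-values below therefore reflect the scatter of these arrays alone, which may be technical.

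Growth factor receptors activate RAS, which starts a relay of the kinases RAF, MEK and ERK. ERK in turn switches on genes whose products damp the relay: DUSP proteins remove the activating phosphates from MAP kinases, and Sprouty and SPRED proteins act further up, between the receptor and RAF. ETV4 and ETV5 are transcription factors of the PEA3 group whose transcription is induced by FGF and ERK signalling in many tissues, and the feedback genes are widely read as an output of the pathway in carcinomas.

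The values are log2 expression values in which each array had nearly the same distribution, with medians of 5.82 to 5.86 in TDECC and 5.80 to 5.81 in TDESM. The number of arrays limits the precision. All 11 measured epithelial markers were higher in TDECC (mean level 12.04 to 12.52 over the TDECC arrays and 4.60 to 4.70 over the TDESM arrays), led by Krt19 and Krt18. All 13 fibroblast markers were lower (4.82 to 4.91 in TDECC and 12.96 to 13.10 in TDESM), led by Col1a2 and Postn. Some markers of the other strain were read above the levels of unrelated cell types given next: Krt7 averaged 8.14 and Krt8 7.11 in TDESM, and Vim 7.94, Col3a1 7.07 and Acta2 6.61 in TDECC. The part of cell identity in the differences below was not tested. Over 62 genes of leukocytes, endothelium, hepatocytes and muscle the levels centred on 4.48 in TDECC and 4.49 in TDESM (medians), with an upper quartile of 5.62, and no detection calls came with the values. A strain mean under that quartile may be background, and a difference from it is then a lower limit in size. Arrays of TDECC differed more from each other than those of TDESM: the median gene spanned 0.46 over the TDECC arrays and 0.23 over the TDESM arrays. In bulk RNA such as this, fewer cells with a transcript and less of it per cell cannot be told apart.

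The feedback genes did not differ between the strains as a block. Spry1, Dusp5, Etv4 and Dusp4 were higher in TDECC, Spry4, Etv5 and Spry2 were lower, and the difference of Dusp1 and Dusp6 did not pass the test. Thus 4 of 9 genes were higher and 3 lower, where 20.6% of all genes tested were higher and 22.1% lower (42.7% in all) at an adjusted p of 0.05 in limma, a linear model fitted across all 14217 genes. The 3 TDECC values lay wholly above or below the 3 TDESM values for 7 of the 9 genes, as they did for 53.6% of all genes. These calls are on the deposited scale; with arrays centred on their poly-A control probe sets 6 were higher and 1 lower, as given below. The median difference, TDECC minus TDESM, was -0.02 over the 9 genes and -0.0033 over all genes. Each of the 7 genes that passed differed by at least 2-fold, as did 3621 of the 6065 genes of the array that passed. Over all genes, passed or not, 26.6% did. The share of 42.7% that passed counts dim genes, also where the lists below are set against it. Without the dimmest 33.3% of genes, 5269 genes passed, with the same 4 feedback genes higher and 3 lower. The share that passed was thus higher among brighter genes.

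**Figure D1:**
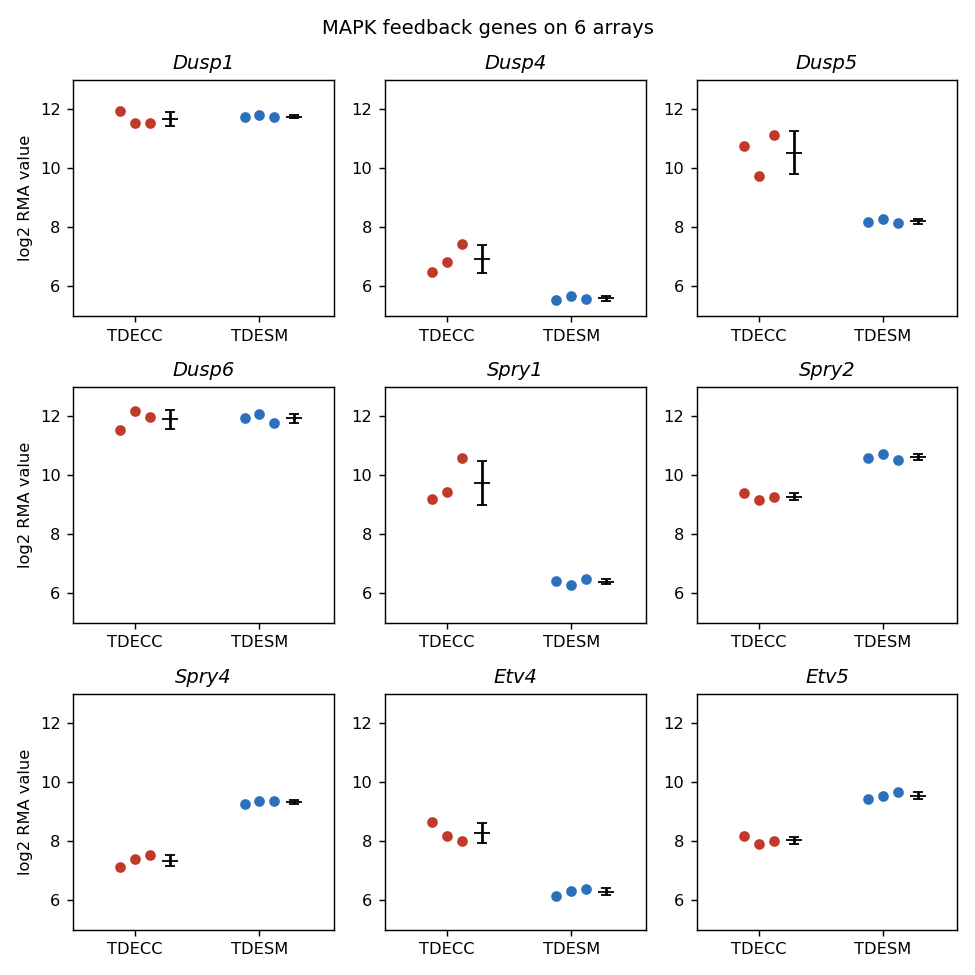
Log2 value of each of the 9 measured genes (vertical axis, the same range in each panel) on the 3 TDECC arrays (red) and the 3 TDESM arrays (blue); the black mark beside each group is its mean with the SD. The groups are apart for 7 genes and overlap for Dusp1 and Dusp6.

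Of the phosphatases, Dusp5 differed most. Dusp5, a nuclear phosphatase specific for ERK, read 10.75, 9.73 and 11.12 in TDECC, against 8.17, 8.30 and 8.16 in TDESM. Every TDECC array was above every TDESM array, with TDECC replicate 2 the lowest of its strain. The log2 difference was 2.32 (SE 0.33, 95% interval 1.53 to 3.12, n = 3 each, limma adjusted p = 0.00133), a 5.00-fold higher level in TDECC. Dusp4, a nuclear phosphatase that acts on ERK, JNK and p38 and is itself induced by ERK, read 6.50, 6.83 and 7.44 in TDECC, against 5.54, 5.69 and 5.56 in TDESM. The TDESM mean of 5.60 lay just under the quartile of 5.62 given above. Dusp4 differed by 1.33 on the log2 scale (SE 0.24, 95% interval 0.77 to 1.89, limma adjusted p = 0.00359), or 2.51-fold.

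Dusp6, the cytoplasmic phosphatase of ERK and the best known readout of ERK activity among the DUSP genes, did not separate the strains. It read 11.55, 12.19 and 11.98 in TDECC, against 11.95, 12.07 and 11.77 in TDESM, and the groups overlapped. The difference was -0.02 (SE 0.19, 95% interval -0.47 to 0.43, limma adjusted p = 0.938), which does not show that the strains are equal. Its other 2 probe sets differed by -0.26 and 0.34 (95% intervals -0.71 to 0.19 and -0.19 to 0.87), neither past the threshold when probe sets were tested. Dusp1, a nuclear phosphatase of p38, JNK and ERK that is induced within minutes by serum and stress, was read by 2 probe sets that differed in their call. Its brighter probe set (1368146_at) read 11.95, 11.53 and 11.54 in TDECC, against 11.75, 11.80 and 11.73 in TDESM. These values overlapped and differed by -0.09 (SE 0.15, 95% interval -0.44 to 0.27, limma adjusted p = 0.691). The second probe set of Dusp1 (1368147_at) read 7.33, 7.25 and 7.85 in TDECC, against 7.99, 8.16 and 8.34 in TDESM. These did not overlap, and the log2 difference of -0.69 (95% interval -1.14 to -0.24, limma adjusted p = 0.0274) passed among 31042 probe sets, of which 36.9% passed.

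The promoters of Dusp5 and Dusp1 are shown because Dusp5 passed the test and the brighter probe set of Dusp1 did not, although both are known as genes that respond quickly to growth factors. The sequences are RefSeq's, assembly GRCr8, from 250 bases before to 50 bases after the start of the gene, written 5′ to 3′ on the gene's strand: chr1:262543524-262543823 (plus strand) for Dusp5 and chr10:17184603-17184902 (plus strand) for Dusp1. Capitals mark matches to 4 motifs searched on both strands: the AP-1 site TGANTCA, the cyclic AMP response element (CRE) TGACGTCA, the ETS site CCGGAA and the CArG box bound by serum response factor.
Dusp5: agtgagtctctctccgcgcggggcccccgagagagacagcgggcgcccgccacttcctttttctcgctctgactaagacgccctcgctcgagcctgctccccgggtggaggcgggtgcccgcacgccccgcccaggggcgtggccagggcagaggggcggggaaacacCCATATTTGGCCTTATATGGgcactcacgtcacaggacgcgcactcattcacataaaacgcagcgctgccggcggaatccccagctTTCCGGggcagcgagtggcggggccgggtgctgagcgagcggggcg
Dusp1: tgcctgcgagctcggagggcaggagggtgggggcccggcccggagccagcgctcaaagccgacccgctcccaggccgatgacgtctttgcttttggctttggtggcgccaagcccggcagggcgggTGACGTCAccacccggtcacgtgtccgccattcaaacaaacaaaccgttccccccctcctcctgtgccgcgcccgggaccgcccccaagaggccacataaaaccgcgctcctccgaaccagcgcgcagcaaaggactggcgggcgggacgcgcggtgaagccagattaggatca
The Dusp5 window held 2 CArG boxes next to each other, at positions -82 to -73 and -72 to -63 counted from the start of the gene, and 1 ETS site just after it. The Dusp1 window held 1 CRE, at -124 to -117. Of 33465 rat promoter windows of this length 1.64% held a CArG box and 0.0209% held 2 or more, 1.83% held a CRE, 14.9% an ETS site and 7.33% an AP-1 site. A match describes the letters and does not show binding.

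The Sprouty genes, inhibitors of receptor tyrosine kinase signalling, differed in opposite directions on the deposited scale. Spry1 read 9.20, 9.43 and 10.58 in TDECC, against 6.43, 6.29 and 6.47 in TDESM. All TDECC arrays were far above all TDESM arrays, and TDECC replicate 3 was the highest. The difference of 3.34 (SE 0.34, 95% interval 2.52 to 4.16, limma adjusted p = 0.000259), or 10.1-fold, was greater in size than that of 94.3% of all genes. Spry2 read 9.40, 9.17 and 9.28 in TDECC, against 10.59, 10.73 and 10.52 in TDESM, with little spread in either strain. It was lower in TDECC by a log2 difference of -1.33 (SE 0.12, 95% interval -1.63 to -1.03, limma adjusted p = 0.000164), or 2.51-fold. Spry4, an inhibitor that is strongly induced by FGF signalling, read 7.13, 7.39 and 7.52 in TDECC, against 9.25, 9.36 and 9.36 in TDESM. It had the largest negative difference of the 9 genes, at -1.98 (SE 0.14, 95% interval -2.31 to -1.65, limma adjusted p = 3.63e-05), or 3.94-fold lower. Each Sprouty gene was read by 1 probe set, so no second reading was at hand.

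The promoters of Spry1 and Spry4 are shown since these genes had the largest difference in each direction. They lie at chr2:122485097-122485396 (plus strand) and chr18:30702497-30702796 (minus strand) of GRCr8, with the same window and capitals as above.
Spry1: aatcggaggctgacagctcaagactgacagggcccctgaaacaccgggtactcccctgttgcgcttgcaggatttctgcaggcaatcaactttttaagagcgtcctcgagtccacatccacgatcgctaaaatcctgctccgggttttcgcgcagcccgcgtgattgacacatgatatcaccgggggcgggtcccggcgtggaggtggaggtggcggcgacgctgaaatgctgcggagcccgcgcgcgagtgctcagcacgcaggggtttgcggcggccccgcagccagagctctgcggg
Spry4: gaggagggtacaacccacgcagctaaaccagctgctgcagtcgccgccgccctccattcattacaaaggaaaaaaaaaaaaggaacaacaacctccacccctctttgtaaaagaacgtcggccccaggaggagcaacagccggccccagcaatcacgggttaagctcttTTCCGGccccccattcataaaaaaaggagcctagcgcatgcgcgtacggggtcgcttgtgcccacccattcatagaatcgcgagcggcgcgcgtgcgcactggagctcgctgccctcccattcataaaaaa
The Spry1 window held none of the 4 motifs as spelled here. The Spry4 window held 1 ETS site on the opposite strand, at -81 to -76. Among the 9 windows that RefSeq gave for 8 of the 10 genes, 2 for Spry2 and none matched for Dusp4 and Etv4, CArG boxes were found in that of Dusp5 alone and the CRE in that of Dusp1 alone.

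The ETS factors Etv4 and Etv5, which are close relatives, also differed in opposite directions on that scale. Etv4 read 8.64, 8.19 and 8.00 in TDECC, against 6.16, 6.31 and 6.39 in TDESM, so that all TDECC arrays were higher (probe set 1380168_at). The log2 difference was 1.99 (SE 0.19, 95% interval 1.55 to 2.43, limma adjusted p = 0.000157), or 3.97-fold. A second probe set of Etv4 (1386739_at) did not separate the strains. It read 7.32, 6.17 and 7.03 in TDECC, against 6.61, 6.58 and 7.21 in TDESM, a difference of 0.04 with a 95% interval of -0.72 to 0.80, and with the mean of both probe sets the difference was 1.01. Etv5 read 8.17, 7.92 and 8.00 in TDECC, against 9.43, 9.55 and 9.67 in TDESM, with all TDECC arrays lower. The difference was -1.52 (SE 0.13, 95% interval -1.83 to -1.21, limma adjusted p = 9.97e-05), or 2.87-fold lower. A dimmer probe set of Etv5 (1382122_at), at a mean of 5.17 in TDECC and 5.45 in TDESM, differed by -0.28 and did not pass, and with the mean of both the difference was -0.90. Of all 14 probe sets, 4 were higher in TDECC, 4 lower and 6 did not pass.

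**Figure D2:**
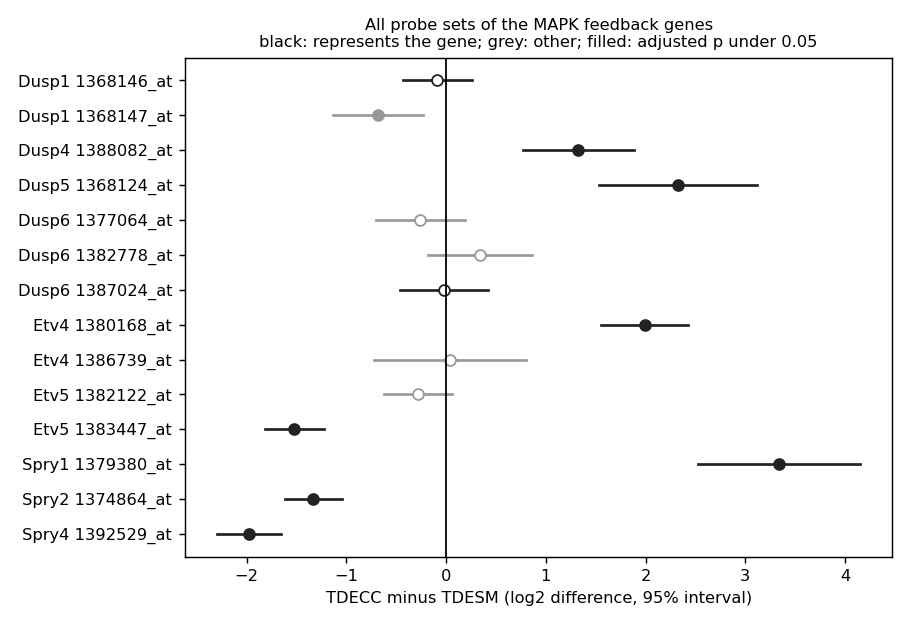
Log2 difference, TDECC minus TDESM, of all 14 probe sets (points) with the 95% interval of the limma fit over probe sets (lines). Black points represent the gene in the text and grey ones are its other probe sets; filled points had an adjusted p under 0.05. The second probe sets of Etv4 and Etv5 lie near 0, and those of Dusp1 differ in their call.

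The size of each difference rests on the scaling of the arrays to equal distributions. So do the calls of Spry2, Etv5, Dusp1 and Dusp6. The array's probe sets for poly-A control transcripts averaged 7.22, 7.29 and 7.65 on the TDECC arrays, against 8.34, 8.46 and 9.03 on the TDESM arrays, and the part of this in the results was not tested. With arrays centred on these controls the median gene was higher in TDECC by 1.22. Spry4 was then lower by a difference of -0.76 (limma adjusted p = 0.0477), while Spry2 at -0.11 and Etv5 at -0.30 no longer passed. Dusp1 at 1.13 and Dusp6 at 1.20, close to the median gene, then passed as higher. Spry1, Dusp5, Etv4 and Dusp4 stayed higher in TDECC under each of the 5 other scalings tried, with differences from 1.30 for Dusp4 to 4.56 for Spry1.

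**Figure D3:**
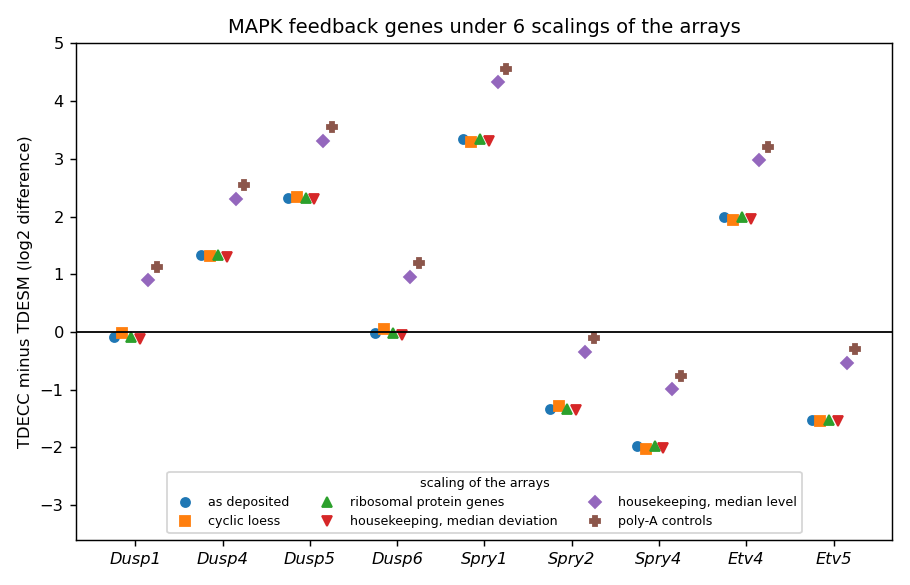
Log2 difference, TDECC minus TDESM, of the 9 genes (horizontal axis) under 6 ways of scaling the arrays (symbols). Centring on the poly-A controls or on the median level of housekeeping genes moves all genes up by about the same amount, which brings Spry2 and Etv5 near 0 and keeps Spry1, Dusp5, Etv4 and Dusp4 above it.

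A constant added to all values of an array cancels in the ratio of 2 of its genes, so that none of the centrings above changes it. An intensity-dependent scaling can: cyclic loess moved the 6 log2 ratio changes below by 0.0045 to 0.091. The ratio of Spry1 to Spry2 was 25.5-fold higher in TDECC than in TDESM (change of the log2 ratio 4.67, SD 0.77 in TDECC and 0.20 in TDESM, n = 3 each). That of Spry1 to Spry4 was 39.9-fold higher and that of Etv4 to Etv5 11.4-fold higher (log2 change 3.51, SD 0.24 in TDECC and 0.02 in TDESM). The Etv4 to Etv5 ratio also depends on the probe sets used. Averaged over their probe sets, Etv4 differed by 1.01 and Etv5 by -0.90, which makes the change of their ratio smaller. Within the phosphatases, Dusp5 over Dusp6 was 5.09-fold and Dusp4 over Dusp6 2.55-fold higher in TDECC, and Dusp5 over Dusp1 5.31-fold higher. For each of these 6 ratios the 2 strains did not overlap. The ratios were chosen with the values known, each with a gene higher in TDECC over one that was lower or did not pass. Their separation therefore follows largely from the choice and is no separate support. With 3 arrays against 3 the exact permutation test (two-sided) cannot go below p = 0.1, which each ratio reached. These ratios show unequal change of the paired genes and do not show which of them changed.

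The median range over the 3 TDECC arrays was 0.64 for the 9 feedback genes, against 0.46 for all genes. It was 1.19 for 27 other genes listed as ERK-responsive, whose response to ERK was not measured here. Fos, a transcription factor induced within minutes, read 6.55, 11.36 and 12.26 on TDECC replicates 1 to 3, against 7.58, 7.81 and 8.01 in TDESM. Egr1, another early factor, read 8.30, 10.61 and 11.90 in TDECC, against 11.97, 11.99 and 11.83 in TDESM. The range over the TDECC arrays was 5.71 for Fos and 3.60 for Egr1. For the feedback genes it was 0.23 for Spry2, 0.25 for Etv5, 0.39 for Spry4, 0.42 for Dusp1, 0.64 for Dusp6 and for Etv4, 0.94 for Dusp4, 1.38 for Spry1 and 1.39 for Dusp5. Dusp1, itself counted among the early genes, was highest on replicate 1 by its brighter probe set, where Fos and Egr1 were lowest. Its second probe set read 7.33, 7.25 and 7.85 and was highest on replicate 3. Dusp4, Dusp5, Spry1 and Spry4 were highest on replicate 3, as Fos and Egr1 were, while Etv4 was lowest there by its probe set 1380168_at. The second probe set of Etv4 read 7.32, 6.17 and 7.03 and was lowest on replicate 2. The part of this spread over the TDECC arrays in the differences was not tested. Over the TDESM arrays the ranges of the 9 genes lay between 0.07 and 0.30. Leaving out any 1 array kept 4 genes higher and 3 lower.

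**Figure D4:**
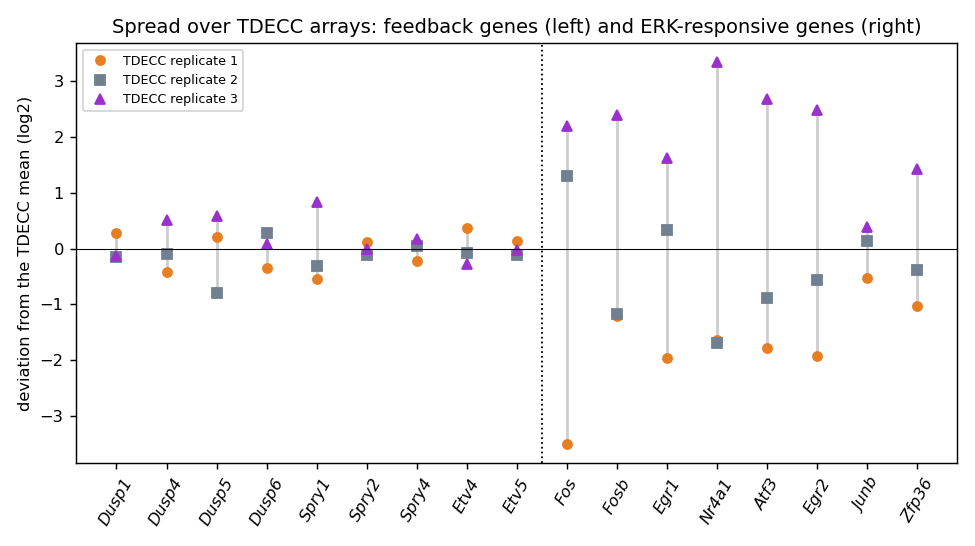
Deviation of each TDECC array from the mean of the 3 TDECC arrays (log2), for the 9 feedback genes left of the dotted line and 8 genes of the ERK-responsive list right of it, chosen after their values were seen. Fos, Fosb, Egr1, Nr4a1, Atf3 and Egr2 span over 3 log2 units, the feedback genes at most 1.39.

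By their profile over the 6 arrays, each centred on its own mean, the genes most like Spry1 among the other 14216 were Tbc1d8, Mertk and Plch1, at root mean square distances of 0.14, 0.18 and 0.19 log2 units. Those most like Spry4 were Ext2, Dync1i1 and Oxsm, at 0.06, 0.09 and 0.09. In 6 arrays of 2 groups the difference between the strains makes up most of such a profile.

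Other feedback genes of the pathway, here including the ETS factor Etv1, split as well. Of 10 measured, 4 were higher in TDECC, 3 lower and 3 did not pass, with a median difference of 0.16. The share that passed was 70%, against 42.7% of all genes. In this and the following lists each difference given passed the limma test, unless stated otherwise. Etv1, the third factor of the PEA3 group, was higher in TDECC, as Etv4 was. It read 8.52, 9.79 and 9.96 in TDECC, against 6.31, 6.28 and 6.51 in TDESM, a difference of 3.06 (2.04 after averaging its 5 probe sets). Lrig1, which promotes the breakdown of ERBB receptors, differed by 2.30, and Errfi1, an inhibitor of EGFR kinase, by 1.07. Spry3 at -1.40, Spred3 at -0.96 (-0.39 after averaging its probe sets) and Dusp2 at -0.45 were lower, so that on the deposited scale 1 of the 4 measured Sprouty genes was higher in TDECC and 3 were lower. Dusp2, at 4.65 in TDECC and 5.09 in TDESM, lay under the quartile of 5.62 in both strains, and Spry3, at 5.39, in TDECC. Centred on the poly-A controls, 8 of the 10 genes were higher and 0 lower.

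Among 18 growth factor receptors, 4 were higher in TDECC and 6 lower (2 higher without any 1 of the 3 TDESM arrays, and 12 higher centred on the poly-A controls). On the deposited scale 55.6% of the receptors passed, where 42.7% of all genes did. Insr, the insulin receptor, differed by 2.11 (1.31 when its probe sets were averaged), Erbb2 by 1.87 and Egfr by 0.56, which became 0.32 (limma adjusted p = 0.204) after averaging its 3 probe sets. Met differed by 0.62, but with means of 4.60 in TDECC and 3.98 in TDESM neither strain was above the quartile of 5.62. Axl, a receptor of the TAM family, differed by -7.05, Pdgfrb by -5.41 (-3.17 after averaging) and the collagen receptor Ddr2 by -5.06. Their TDECC means of 5.36, 4.15 and 3.92, in that order, lay under that quartile, so that these sizes are lower limits if TDECC was at background. Of 22 genes of the RAS to ERK relay, 5 were higher in TDECC and 10 lower, with a median of -0.44. In all, 68.2% of this list passed, against 42.7% of all genes. Rps6ka3, a kinase activated by ERK, differed by 2.76 (1.44 after averaging its probe sets), the scaffold Ksr1 by 2.22 and the RAS activator Sos2 by 1.42. Mras, a RAS relative, differed by -2.10, the scaffold Lamtor3 by -0.95, and the adaptor Grb2 by -1.12, which became -0.19 (limma adjusted p = 0.289) after averaging its 3 probe sets. These counts were 3 higher and 6 lower without TDESM replicate 2, 6 lower without TDESM replicate 1, 6 lower with probe sets averaged, and 12 higher and 1 lower centred on the poly-A controls.

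Of 27 measured ERK-responsive genes other than the feedback genes, 6 were higher in TDECC and 1 lower, and 20 did not pass. Their share that passed, 25.9%, was below the 42.7% of all genes. Their median range over the TDECC arrays, 1.19, was above the 0.46 of all genes. The part of this spread in that share was not tested. Genes of the list highest relative to TDESM were Epha4, a receptor kinase, at 3.01, Ccnd1, cyclin D1, at 2.92 and Epha2 at 2.70, each with groups well apart. Ccnd1 read 13.16, 12.79 and 12.69 in TDECC, against 10.03, 9.81 and 10.03 in TDESM. Phlda1, a gene often used with DUSP and Sprouty genes to score ERK output, differed by 0.69 (limma adjusted p = 0.0463). Its groups were not apart: the lowest TDECC value and the highest TDESM value were both 8.05. Srf, serum response factor, was lower by a difference of -0.90. Fosl1 at 0.09, Myc at 0.36, Fos at 2.26 and Egr1 at -1.66 did not pass (limma adjusted p = 0.824, 0.387, 0.234 and 0.148, in this order). Without TDECC replicate 3, the array with the highest Fos and Egr1, 6 of the list were lower in place of 1, with probe sets averaged 2 were, and centred on the poly-A controls 21 were higher and 0 lower.

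Etv4 and Etv5 belong to a wider family in which the strains also differed both ways. Of 16 other ETS factors measured, 4 were higher in TDECC, 5 lower and 7 did not pass. The share that passed was 56.25%, against 42.7% of all genes. Elf3, an epithelial ETS factor, differed by 5.80 and Ehf, also epithelial, by 3.07, beside Etv1 given above; in TDESM their means of 5.50 and 4.34 lay under the quartile of 5.62. Ets1 differed by -2.48, Elf1 by -1.50 and Etv6 by -0.97 (-0.48 after averaging its probe sets), and centred on the poly-A controls 11 were higher and 1 lower.

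**Figure D5:**
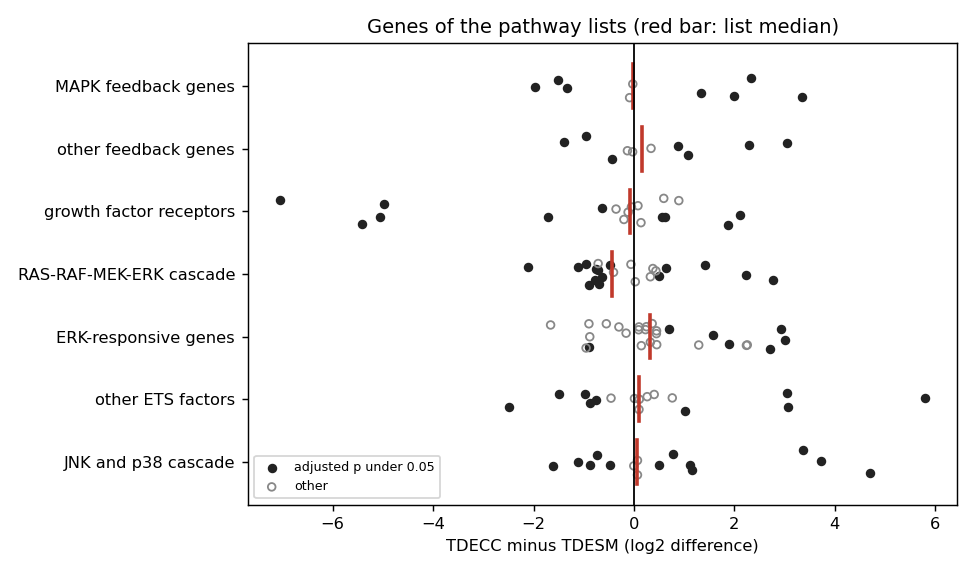
Log2 difference, TDECC minus TDESM (horizontal axis), of each measured gene of 7 lists (from top to bottom, with points shifted vertically for legibility); filled points had a limma adjusted p under 0.05 and the red bar is the list's median. The feedback genes and each other list hold genes on both sides of 0, with medians between -0.44 and 0.33.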

How the data were processed

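Affymetrix rat arrays read the RNA of 6 samples, whose titles gave strain and replicate. Trizol extraction and labelling as biotinylated cRNA are stated per the labels. The authors deposited log2 values, made with RMA per the submitters' processing notes (version not given in the sources used here). Such scaling removes differences in total mRNA between strains.

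Of 31099 probe sets, 57 were controls, 20826 named 1 gene symbol in the platform annotation, 436 named several and 9780 were not listed. A gene was its probe set with the highest mean (14217 genes, no filter). In R 4.3.3, limma 3.58.1 (lmFit, eBayes) tested TDECC minus TDESM, two-sided; p-values were adjusted by Benjamini-Hochberg over all genes and called under 0.05. The fit was checked on simulated data. RefSeq (GRCr8) gave the promoters.

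The members and gene lists were chosen with earlier results of these data known. From each pathway list up to 3 genes each way with the largest difference were named, plus Fos, Egr1, Fosl1, Myc, Ccnd1, Phlda1, Egfr and Errfi1; other preset genes are not reported here. For Spry1 and Spry4, the largest difference each way, the 3 genes most alike were named. Of 273 list symbols 229 were measured. Alternatives were other scalings, a filter on the dimmest 33.3% of genes, averaged probe sets, trended and robust eBayes, a replicate block, each array left out, and a minimum log2 difference of 1. Centring on the median deviation of housekeeping genes was added after seeing the data.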

Additional observations from a re-analysis of the deposited data

How the results depend on the processing

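Dusp4, Dusp5, Spry1, Spry4 and Etv4 kept their direction and their call under all 16 alternatives, and Spry2 and Etv5 under 14. Centred on housekeeping genes by their median level, 11374 genes passed, 10277 higher in TDECC and 1097 lower, with 1 feedback gene lower; Dusp1 was at 0.90, Dusp6 at 0.96, Spry2 at -0.35 (limma adjusted p = 0.231) and Etv5 at -0.54 (limma adjusted p = 0.0783). With the median deviation of the same genes, 6094 genes passed and all calls of the 9 genes held. Centring on these genes thus gave different calls depending on how their median was taken, and the cause was not tested. Centred on the poly-A controls, 11771 passed, 10873 higher and 898 lower, with 1 feedback gene lower, Dusp1 at 1.13 and Dusp6 at 1.20; the cause was not tested. A minimum log2 difference of 1 left 3621 genes, 1716 higher and 1905 lower. Dusp6 was at 0.0559 with cyclic loess, 0.02 after averaging its probe sets and between -0.165 and 0.155 leaving out each array. Dusp1 passed after averaging its probe sets (-0.39, limma adjusted p = 0.0432). Same-numbered arrays deviated from their group means with correlations of -0.07, 0.02 and -0.14, so the numbers were not taken to pair them. The replicate block gave 5342 genes, the same calls for the 9 feedback genes and 3 genes of the RAS to ERK relay higher in place of 5. Of 192 counts of higher or lower genes in the other lists over the alternatives, 155 were within 1.5 times the count given; those that moved further are named elsewhere in the text, or came from the housekeeping level and the minimum difference. The 6 arrays limit the precision.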

Other observations

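Genes of the JNK and p38 cascades, whose kinases the products of Dusp1 and Dusp4 act on besides ERK, also differed between the strains. The list holds whole cascades, and of the genes named below only Mapk12 is itself a JNK or p38 kinase. Of 15 genes of the JNK and p38 cascades, 7 were higher in TDECC, 5 lower and 3 did not pass, with a median difference of 0.07. The share that passed was 80%, against 42.7% of all genes. Mapkapk3, a kinase activated by p38, read 9.47, 9.81 and 9.42 in TDECC, against 4.70, 4.75 and 5.15 in TDESM, a difference of 4.70 (SE 0.18, limma adjusted p = 1.6e-06). Its relative Mapkapk2 went the other way, at 9.96, 10.04 and 10.05 in TDECC and 11.12, 11.22 and 11.07 in TDESM, a difference of -1.12 (limma adjusted p = 0.000218). Mapk12, a p38 kinase known from muscle, read 8.40, 8.56 and 8.72 in TDECC, against 4.82, 4.83 and 4.84 in TDESM (3.73, limma adjusted p = 9.91e-07). Map3k1, an upstream kinase of JNK, differed by 3.36, the JNK scaffold Mapk8ip1 by -1.62 and the p38 activator Map2k6 by -0.88. The TDESM means of Mapkapk3 (4.87) and Mapk12 (4.83) and the TDECC mean of Map2k6 (4.90) lay under the quartile of 5.62 of markers of unrelated cell types. Centred on the poly-A controls, none of these 15 genes was lower in TDECC.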
